A study of Mus musculus with 9 samples.

Results

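The genes described here handle cellular iron, and they were followed in mouse retinal cells after optic nerve crush (ONC), with and without the metal chelator TPEN. The set was given by name, for the known roles of its genes in iron handling and with earlier results of these data known. It holds the ferritin chains Fth1 and Ftl1, the uptake genes Trf, Tfrc and Slc11a2, the export genes Slc40a1, Cp and Heph, and the regulators Aco1 and Ireb2. Of these 10 genes, 9 were among the 15228 genes of the expression table, and 8 had a mean of at least 0.5 RPKM (reads relative to exon length and library total) and were tested. Heph was under this level and Slc40a1, the iron exporter ferroportin, was not analysed here. Wild-type mice supplied 3 groups of 3 libraries. Ctrl came from uninjured retinas, ONC from retinas taken 3 d after crush with an intraocular injection of PBS, and TPEN from retinas taken 3 d after crush with an intraocular injection of TPEN. The labels name no injection for Ctrl, so in ONC/Ctrl the effects of crush and of injection cannot be told apart. The words after ONC stand below for crush together with the PBS injection. The methods name C57BL/6J mice of both sexes, operated on as young adults. No source used here ties single libraries to mice, so p-values measure the spread between these libraries, which may be technical.

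Cells hold iron in ferritin, a shell of heavy and light chains in which the heavy chain oxidizes ferrous iron. Transferrin carries ferric iron to cells, the transferrin receptor takes it in, and DMT1, the product of Slc11a2, moves it out of the endosome. Release runs through ferroportin, helped by the ferroxidases ceruloplasmin (Cp) and hephaestin (Heph). When iron is scarce, the iron-regulatory proteins IRP1 (Aco1) and IRP2 (Ireb2) bind hairpins called iron-responsive elements, which blocks translation of ferritin mRNA from its 5′ end and protects transferrin receptor mRNA from decay at its 3′ end. TPEN is used as a chelator of zinc, but it binds ferrous iron as well. The comparisons below therefore ask whether the mRNAs of iron handling moved after ONC and whether they differed with TPEN. They measure mRNA only, and neither iron nor protein.

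The hairpins of the ferritin and transferrin receptor mRNAs are shown first, since these mRNAs answer to the iron-regulatory proteins in different ways. They were found in GENCODE M21 transcripts by a search of untranslated regions, on the transcript strand, for a bulged C, 5 bases of any kind and the loop CAGTGN with a last base other than G, with 5 paired bases between C and loop and at least 3 below the C. G-U pairs were allowed. Capitals mark the bulged C and the 6-base loop, and each sequence is 29 bases long, 5′ to 3′ on the strand of the gene. The coordinates are those of GRCm38.
Fth1, 5′ UTR, chr19:9982732-9982760, plus strand: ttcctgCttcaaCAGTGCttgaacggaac
Ftl1, 5′ UTR, chr7:45459779-45459807, minus strand: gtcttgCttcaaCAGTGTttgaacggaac
Tfrc element 1, 3′ UTR, chr16:32631219-32631247, plus strand: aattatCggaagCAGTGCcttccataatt
Tfrc element 2, 3′ UTR, chr16:32631598-32631626, plus strand: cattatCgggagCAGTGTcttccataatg
Tfrc element 3, 3′ UTR, chr16:32631663-32631691, plus strand: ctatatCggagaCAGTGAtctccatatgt
Tfrc element 4, 3′ UTR, chr16:32631710-32631738, plus strand: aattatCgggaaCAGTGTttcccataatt

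All 6 elements lay in 1 exon each and inside the exons on which the deposited levels rest. The loop letters CAGTG are part of the search and so are shared by construction. The ferritin pair also had the same 5 bases before the loop, and element 4 of Tfrc folded most stably of the 6, at -11.2 kcal/mol against -5.6 for Ftl1 and -7.0 for Fth1. Of 21710 genes, each searched in its longest complete coding transcript, 0.0368% held a match in the 5′ UTR and 0.147% in the 3′ UTR. Tfrc was the only gene with 4 matches. The genes with a match in the 5′ UTR were Alas2, Fth1, Ftl1, Ftl1-ps1, Ppia, Ppp1r1b, Serpina3g and Slc40a1. No complete annotated coding transcript of Trf, Slc11a2, Cp, Heph, Aco1 or Ireb2 held these letters with this stem. A match is a description of the sequence and does not show binding. A missing match says only that these letters with this stem are not in the UTRs searched.

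The libraries held 19946993 to 23109754 reads, as worked out from the deposited values, and a count of 0 allows up to 3 reads, a limit for counting error only. The sort kept cells with the surface phenotype CD90.2+ CD48neg CD15neg CD57neg as retinal ganglion cells (RGCs). The study also stained sorted cells for the RGC protein RBPMS, which is not part of these data. Of 8 RGC markers with values, Rbpms (0.25 to 0.69 RPKM), Slc17a6 (0.18 to 0.53) and Pou4f1 (0.07 to 0.68) were low in all libraries, Isl1 was at 1.52 to 2.33 RPKM and Thy1, the gene of the sorted antigen CD90, at 4.54 to 7.58. The other markers, which many neurons express, were higher, with 17.3 to 24.8 RPKM for Sncg, 43.6 to 61.9 for Nefm and 193 to 271 for Nefl. The summed level of the rod markers was 15139 to 18017 RPKM over the 9 libraries. The summed level of 11 microglia and macrophage markers was 3.82 to 4.72 RPKM in Ctrl, 40.9 to 41.6 in ONC and 20.0 to 22.7 in TPEN. The sum of 3 astrocyte markers moved in the same order, from 5.54 to 6.21 in Ctrl to 27.2 to 28.3 in ONC and 17.3 to 20.0 in TPEN. Most of this was Gfap, at 2.73 to 2.83 RPKM in Ctrl, 21.8 to 22.9 in ONC and 13.4 to 15.1 in TPEN. Aldh1l1 was at 1.76 to 2.47 RPKM in Ctrl and 4.13 to 4.39 in ONC. S100b overlapped, at 0.74 to 1.49 RPKM in Ctrl and 1.23 to 1.32 in ONC. In such bulk samples, fewer cells of a type and less RNA per cell cannot be told apart, and the name RGC stands below only for the sort gate.

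**Figure D1:**
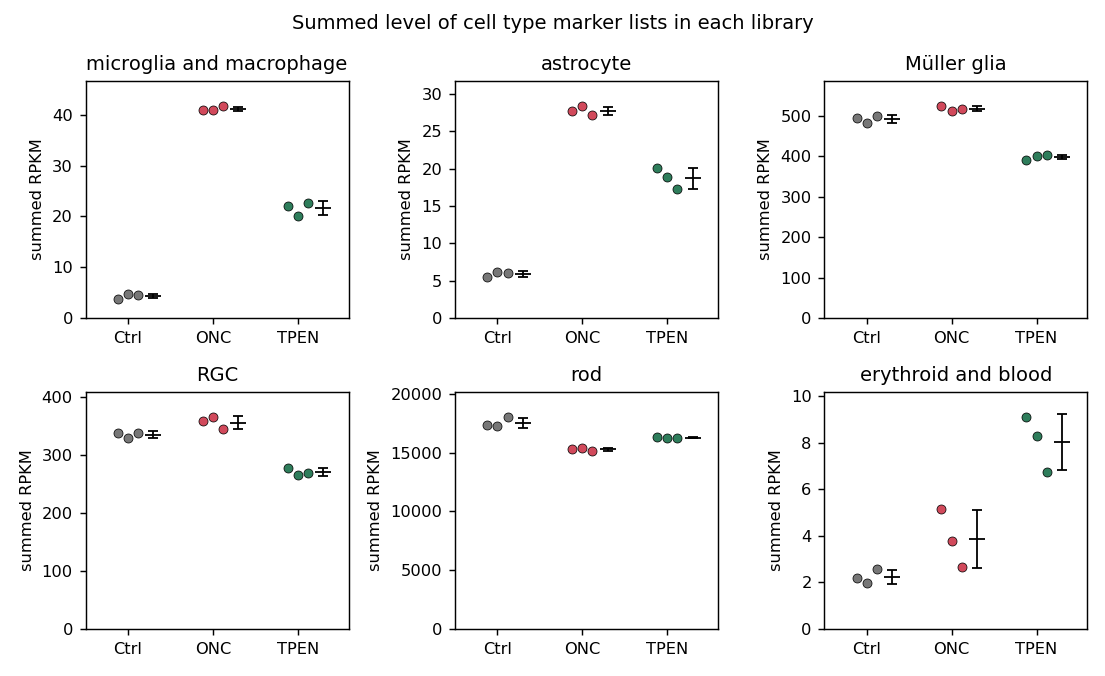
Summed RPKM of the markers of 6 cell types (y axis, linear from 0) in each library of Ctrl, ONC and TPEN, with points for libraries and a bar for the mean ± SD of 3. The microglia and macrophage sum lies at 3.82 to 4.72 in Ctrl, 40.9 to 41.6 in ONC and 20.0 to 22.7 in TPEN, while the rod sum lies between 15139 and 18017 in all 9 libraries.

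After ONC, both ferritin genes, transferrin and ceruloplasmin were upregulated and the transferrin receptor was downregulated. By the ratio of mean RPKM, transferrin rose most, by 153%, followed by ferritin light chain with 102%. Ceruloplasmin rose by 34.0% and ferritin heavy chain by 26.7%, while the transferrin receptor fell by 15.96%. Slc11a2, Aco1 and Ireb2 did not pass the test. In all, 5 of the 8 tested genes had an adjusted p under 0.05 in ONC/Ctrl (limma on log2(RPKM + 0.1), adjusted over all 13566 genes tested), 4 higher and 1 lower. Among all genes tested, 18.7% passed, 11.7% higher and 6.97% lower. Trf and Ftl1 were also changed at least 1.5-fold, a limit that 4.58% of all genes passed upwards. In these 5 genes the groups did not overlap, against 36.5% of all genes. The median log2 fold change of the 8 genes was 0.20, beside 0.017 for all genes tested.

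With TPEN, ferritin was the pair of genes that differed from ONC. The heavy chain fell by 23.7% and the light chain fell by 35.0%, and no gene of the set was upregulated by limma, nor at an unadjusted p under 0.05 or by voom on the reads (0 of 8 in each). Thus 2 of 8 genes passed in TPEN/ONC, both lower, where 7.39% of all genes passed and 4.14% were lower. Only Ftl1 was also lower by at least 1.5-fold, as were 1.21% of all genes. The libraries of the groups did not overlap for Fth1, Ftl1 and Trf, against 28.0% of all genes, and the median log2 fold change was -0.056 beside -0.011 for all genes. In TPEN/Ctrl, 4 of 8 genes passed, where 13.4% of all genes did. Trf, Ftl1 and Cp were higher, as were 8.36% of all genes, and Tfrc was lower, as were 5.01%. The 3 comparisons share libraries and are not independent of each other.

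**Figure D2:**
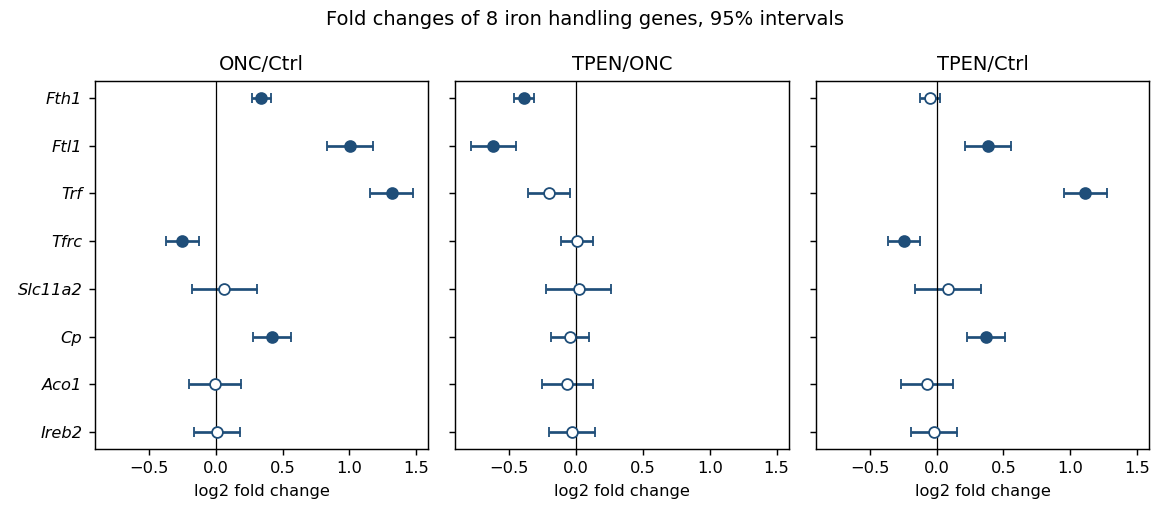
Log2 fold change of the 8 tested genes (x axis, on the log2(RPKM + 0.1) scale) in ONC/Ctrl, TPEN/ONC and TPEN/Ctrl, with 95% intervals from limma. Filled points passed an adjusted p of 0.05, and open points did not. In TPEN/ONC the filled points are Fth1 at -0.39 and Ftl1 at -0.62, and in ONC/Ctrl the points farthest right are Trf at 1.32 and Ftl1 at 1.005.

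Fth1, the ferritin heavy chain, lies on chromosome 19 (9982703 to 9985092, plus strand) and had the highest level of the set, at rank 198 of 15228 genes by mean RPKM. Its level was 169, 166 and 175 RPKM in Ctrl, 215, 210 and 221 in ONC, and 159, 167 and 167 in TPEN. Every ONC library was above every library of the other groups, and Ctrl and TPEN overlapped. The means were 170.0 ± 4.50, 215.4 ± 5.57 and 164.4 ± 4.99 RPKM in Ctrl, ONC and TPEN (SD, n = 3 libraries). On the log2 scale it rose by 0.34 ± 0.033 (SE) in ONC/Ctrl, at a limma adjusted p of 6.83e-05, and fell by 0.39 ± 0.033 (SE) in TPEN/ONC, at an adjusted p of 0.000124. In TPEN/Ctrl it was -0.049, with a 95% interval of -0.12 to 0.025 and an adjusted p of 0.386 by limma. Each library held 2746 to 4400 reads of Fth1, and no other annotated transcript shared 150 bases at 95% identity with its mRNA.

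Ftl1, the ferritin light chain, lies on chromosome 7 (45457944 to 45459884, minus strand). Its level was 8.09, 7.33 and 6.95 RPKM in Ctrl, 14.0, 15.3 and 15.8 in ONC, and 8.96, 10.04 and 10.3 in TPEN. The 3 groups did not overlap, with TPEN between Ctrl and ONC. By limma it rose by 1.005 ± 0.076 (log2, SE) in ONC/Ctrl, at an adjusted p of 1.4e-05, fell by 0.62 in TPEN/ONC, at an adjusted p of 0.00149, and was 0.39 above Ctrl in TPEN/Ctrl, at an adjusted p of 0.00868. Its reads are uncertain, because 7 annotated genes hold stretches of at least 150 bases that are at least 95% identical to its mRNA, among them Ftl1-ps1 with 99.6% over 910 bases. Within Ftl1, 26.5% of the exon length is shared with Gm10252 on the other strand and 8.13% with Gm22133 on the same strand. Gm10252 moved in the same directions, by 0.96 (log2) between ONC and Ctrl and by -0.52 between TPEN and ONC. Whether reads were counted by strand is not stated.

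The low level of Ftl1 beside Fth1 is a value per kilobase of exon, and reads that match several copies may have been left out of it. The ratio of Fth1 to Ftl1 within a library was 22.9 ± 2.15 in Ctrl, 14.3 ± 0.866 in ONC and 16.9 ± 0.768 in TPEN (SD, n = 3 libraries). On the log2 scale it was 0.67 lower in ONC than in Ctrl and 0.23 higher in TPEN than in ONC. The groups did not overlap, and the exact permutation test over the libraries, with 280 arrangements into 3 groups, gave p = 0.00357, the smallest it can give. The light chain thus changed by more than the heavy chain after ONC, within the limits set by its copies.

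Both ferritin genes were highest in ONC, as were the summed microglia and macrophage markers and the summed astrocyte markers. The astrocyte sum was mostly Gfap, and S100b of that list did not pass in ONC/Ctrl (limma adjusted p = 0.507). It is therefore not read as a measure of astrocytes. The part of the cells that express these markers in the ferritin levels was not tested. All 9 tested microglia and macrophage markers were higher in ONC/Ctrl, 5 of them were lower in TPEN/ONC, and all 9 were still higher in TPEN/Ctrl. Of all genes tested, 11.7% were higher in ONC/Ctrl, 4.14% lower in TPEN/ONC and 8.36% higher in TPEN/Ctrl. Between TPEN and Ctrl, the log2 difference was -0.049 for Fth1 and 0.39 for Ftl1, and the marker sum was 20.0 to 22.7 RPKM in TPEN and 3.82 to 4.72 RPKM in Ctrl. The summed markers of Müller glia were also lower in TPEN, at 391 to 403 RPKM against 511 to 523 in ONC, as were those of RGCs, at 265 to 278 against 345 to 365, and their part in the ferritin levels was not tested either. Apoe and Nefl had the highest levels of these lists in ONC. In TPEN/ONC, 3 of 6 tested Müller glia markers passed as lower (Apoe, Rlbp1 and Glul). Of 5 tested RGC markers, 3 also passed as lower (Nefl, Nefm and Sncg). Of all genes tested, 4.14% were lower there and 3.24% higher. In each list 1 marker was higher, namely Aqp4 (log2 fold change 0.30, limma adjusted p = 0.032) and Thy1 (0.40, limma adjusted p = 0.00587).

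Trf, the gene of transferrin, lies on chromosome 9 (103204001 to 103230444, minus strand). Its level was 3.51, 3.597 and 4.05 RPKM in Ctrl, 9.41, 9.13 and 9.65 in ONC, and 8.71, 7.69 and 8.06 in TPEN. The groups did not overlap, and TPEN lay far closer to ONC than to Ctrl. Relative to Ctrl, it was higher by 1.32 ± 0.071 (log2, SE) in ONC, at a limma adjusted p of 1.54e-06, and by 1.11 in TPEN, at an adjusted p of 8.13e-06. In TPEN/ONC it was -0.20, with a 95% interval of -0.36 to -0.044 before adjustment, and it did not pass (limma adjusted p = 0.125). Of the exon length of Trf, 63.5% is shared with the predicted gene Gm20425 on the same strand, so the reads of the pair cannot be told apart there. Gm20425 had log2 fold changes of 0.92 in ONC/Ctrl and -0.13 in TPEN/ONC. Transferrin is also made by oligodendrocytes and by the retinal pigment epithelium. The 2 oligodendrocyte markers with values summed to 1.35 to 1.51 RPKM in Ctrl, 1.35 to 1.50 in ONC and 1.29 to 1.61 in TPEN. Of 8 retinal pigment epithelium markers, the 2 with values summed to 6.36 to 7.68, 8.54 to 11.1 and 9.38 to 11.6 RPKM. Ttr made up most of this sum. The other marker, Rgr, was at 0.39 to 0.52 RPKM in Ctrl, 0.24 to 0.47 in ONC and 0.42 to 0.84 in TPEN. The part of these cell types in the level of Trf was not tested.

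Tfrc, the transferrin receptor, lies on chromosome 16 (32608920 to 32632794, plus strand), and it was the only tested gene of the set that fell in ONC/Ctrl. Its level was 13.2, 13.9 and 12.7 RPKM in Ctrl, 11.1, 10.8 and 11.5 in ONC, and 10.9, 11.9 and 10.8 in TPEN. Every Ctrl library was above every other library, and ONC and TPEN overlapped. It fell by 0.25 ± 0.054 (log2, SE) relative to Ctrl in ONC, at a limma adjusted p of 0.0104, and in TPEN it fell by 0.24, at an adjusted p of 0.016. Without Ctrl replicate 2, TPEN replicate 1 or TPEN replicate 3, the adjusted p in TPEN/Ctrl was 0.0598, 0.0575 and 0.0609. In TPEN/ONC the log2 fold change was 0.0052, with a 95% interval of -0.12 to 0.13.

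**Figure D3:**
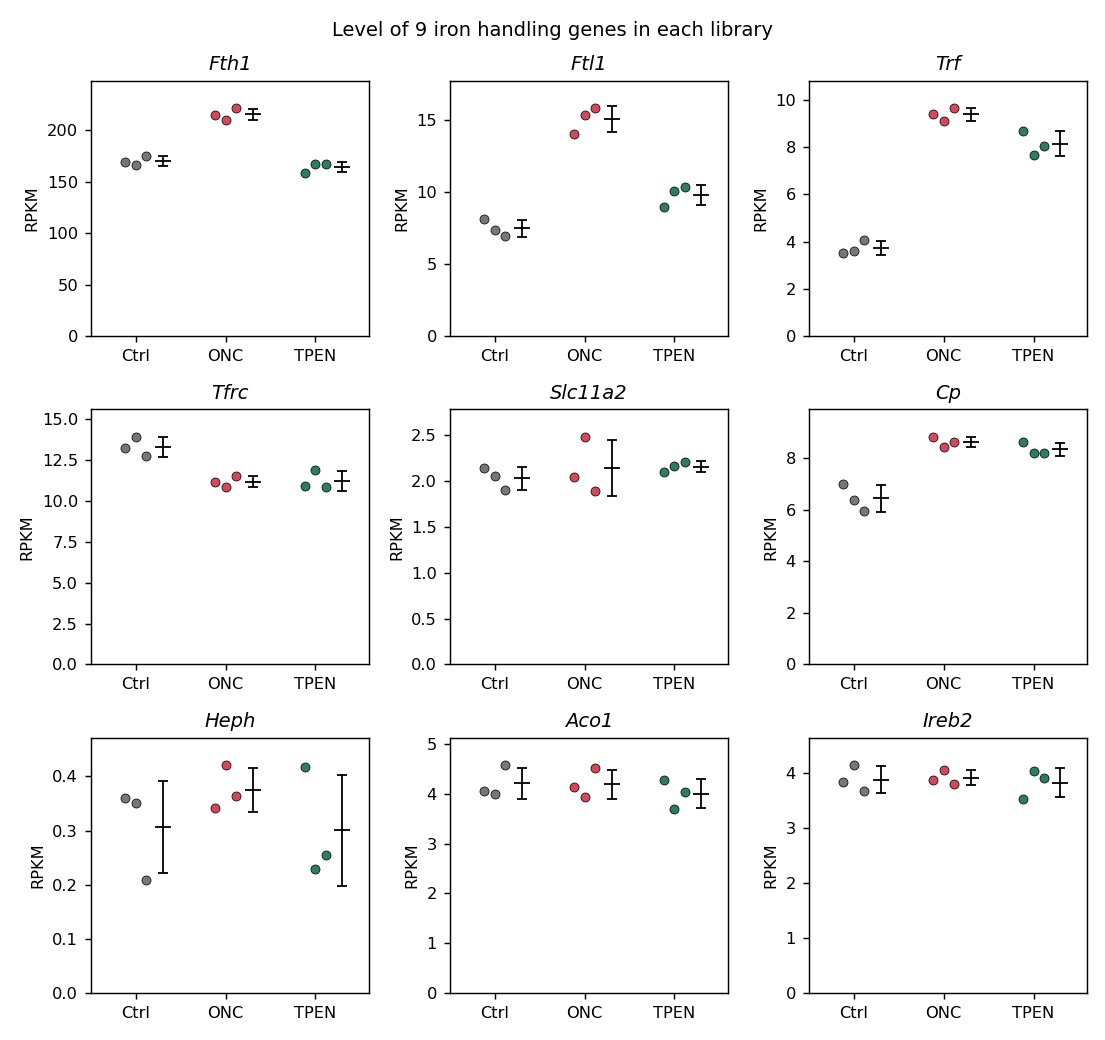
RPKM of the 9 genes with values (y axes, linear from 0, scaled per gene) in each library of Ctrl, ONC and TPEN, with points for libraries and a bar for the mean ± SD of 3. Fth1 lies at 210 to 221 RPKM in ONC and at 159 to 175 in the other groups, Trf at 9.13 to 9.65 in ONC and 7.69 to 8.71 in TPEN, and Tfrc is highest in Ctrl.

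The ratio of Tfrc to Fth1 sets uptake against storage within each library and does not depend on the scaling of the library. Its log2 value was -3.78 to -3.58 in Ctrl, -4.28 to -4.27 in ONC and -3.95 to -3.81 in TPEN. It was 0.59 lower in ONC than in Ctrl, 0.40 higher in TPEN than in ONC and 0.20 lower in TPEN than in Ctrl. The same exact permutation test gave p = 0.00357 for the 3 groups, the smallest it can give, while no pair of groups can go below p = 0.1. Of the difference between TPEN and ONC, the level of Tfrc made up 0.0052 on the log2 scale and that of Fth1 the rest.

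**Figure D4:**
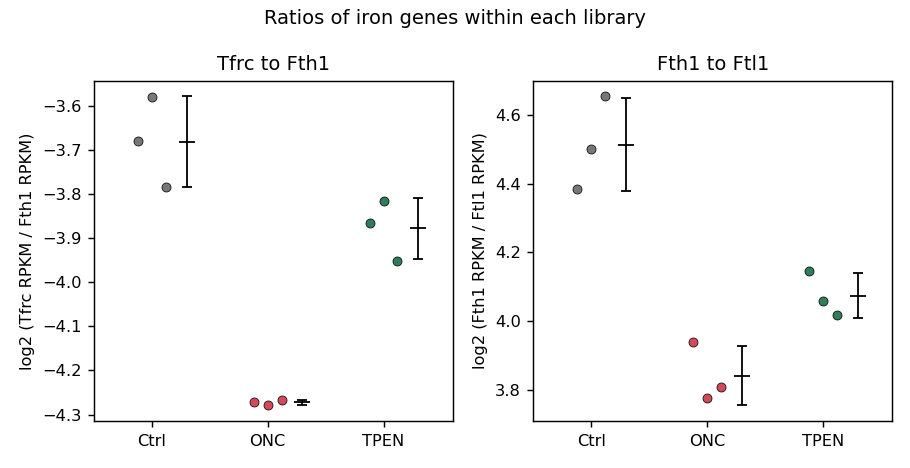
Log2 of the ratio of Tfrc to Fth1 (left) and of Fth1 to Ftl1 (right), both from RPKM, in each library of Ctrl, ONC and TPEN, with points for libraries and a bar for the mean ± SD of 3 (y axes do not start at 0). TPEN lies between the other groups in both ratios, at -3.88 ± 0.0687 for Tfrc to Fth1 and 4.07 ± 0.0653 for Fth1 to Ftl1.

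Slc11a2, which encodes the divalent metal transporter DMT1, lies on chromosome 15 (100387898 to 100425072, minus strand). Its level was 2.14, 2.05 and 1.90 RPKM in Ctrl, 2.05, 2.48 and 1.89 in ONC, and 2.09, 2.16 and 2.21 in TPEN. All groups overlapped. The log2 fold change was 0.066 in ONC/Ctrl (95% interval -0.18 to 0.31, limma adjusted p = 0.732) and 0.018 in TPEN/ONC (95% interval -0.23 to 0.26, limma adjusted p = 0.950).

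Cp, the gene of the copper ferroxidase ceruloplasmin, lies on chromosome 3 (19957054 to 20009145, plus strand). Its level was 6.99, 6.36 and 5.96 RPKM in Ctrl, 8.83, 8.44 and 8.61 in ONC, and 8.63, 8.19 and 8.22 in TPEN. Ctrl lay below both other groups, which overlapped. Relative to Ctrl it rose by 0.42 ± 0.063 (log2, SE) in ONC, at a limma adjusted p of 0.0013, and by 0.37 in TPEN, at an adjusted p of 0.00388. Between TPEN and ONC the log2 difference was -0.048, with a 95% interval of -0.19 to 0.094 (limma adjusted p = 0.718). Only 1.13% of its exon length is shared with Hps3 on the other strand, and Hps3 had a log2 fold change of 0.048 in ONC/Ctrl. Heph, on the X chromosome (96455359 to 96574485, plus strand), encodes hephaestin, the ferroxidase related to ceruloplasmin. It had 32 to 74 reads a library, or 0.208 to 0.361 RPKM in Ctrl, 0.341 to 0.421 in ONC and 0.229 to 0.418 in TPEN. With the filter on low genes lifted, its log2 fold change was 0.24 (limma adjusted p = 0.507) in ONC/Ctrl and -0.27 (limma adjusted p = 0.530) in TPEN/ONC, so no difference was detectable at this depth.

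Aco1 encodes IRP1, which also acts as the cytosolic aconitase when it carries an iron-sulfur cluster. It lies on chromosome 4 (40143081 to 40198338, plus strand). Its level was 4.05, 4.004 and 4.58 RPKM in Ctrl, 4.13, 3.93 and 4.51 in ONC, and 4.27, 3.70 and 4.04 in TPEN. Ireb2 encodes IRP2, which is removed by degradation when iron is plentiful. It lies on chromosome 9 (54863789 to 54912530, plus strand). Its level was 3.84, 4.14 and 3.67 RPKM in Ctrl, 3.88, 4.06 and 3.79 in ONC, and 3.53, 4.03 and 3.91 in TPEN. All groups overlapped for both genes. The log2 fold change of Aco1 was -0.0054 in ONC/Ctrl (95% interval -0.20 to 0.19) and -0.065 in TPEN/ONC (95% interval -0.26 to 0.13). That of Ireb2 was 0.012 in ONC/Ctrl (95% interval -0.16 to 0.19) and -0.033 in TPEN/ONC (95% interval -0.21 to 0.14). Both proteins are regulated mainly after transcription, which these data do not measure.

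By mean RPKM the order in Ctrl was Fth1, Tfrc, Ftl1, Cp, Aco1, Ireb2, Trf, Slc11a2 and Heph. In that order the libraries of Ftl1 and Cp overlapped, as did those of Aco1 and Ireb2 and those of Ireb2 and Trf. In ONC, Ftl1 stood above Tfrc and Trf stood above Cp, in both cases without overlap. In TPEN, Tfrc was again above Ftl1 without overlap, and Cp and Trf overlapped. The places of Ftl1 and Trf depend on how reads of the near copies of Ftl1 and of the exons shared with Gm20425 were counted. That is not stated in the sources.

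The genes whose pattern over the 9 libraries was most like that of Trf, the gene with the largest difference in ONC/Ctrl, were Gm20425, Rfx2, Crym, Gnb3 and Hk1 (Pearson r of 0.995 to 0.998 on log2(RPKM + 0.1)). Those most like Ftl1, with the largest difference in TPEN/ONC, were Rbm17, Nop14, Tax1bp1, Ncf1 and Apobr (r of 0.984 to 0.997). The first of these, Gm20425, shares exons with Trf. The 9 points come from 3 groups, so the values of r mainly describe the order of the groups.

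Beyond these members, 94 other genes of iron and haem handling and of the hypoxia-inducible factor (HIF) were counted by list, of which 68 were tested. In ONC/Ctrl 6 were higher and 7 lower, and in TPEN/ONC 2 were higher and 2 lower. These are 8.82% and 10.3% of the listed genes in ONC/Ctrl, beside 11.7% and 6.97% of all genes, and 2.94% in each direction in TPEN/ONC, beside 3.24% and 4.14%. None of the 8 genes of haem synthesis passed by limma in any of the 3 comparisons. At an unadjusted p under 0.05, 1 of them was higher and 2 lower in ONC/Ctrl and 0 differed in the other comparisons, and voom on the reads called 1 lower in ONC/Ctrl.

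Hmox1, haem oxygenase 1, frees iron from haem and is induced by haem and by oxidative stress. Its level was 1.22, 1.26 and 1.14 RPKM in Ctrl, 10.04, 10.7 and 10.05 in ONC, and 1.69, 2.01 and 1.89 in TPEN. The groups did not overlap, and TPEN lay between Ctrl and ONC. It rose by 2.99 ± 0.086 (log2, SE) in ONC/Ctrl, at a limma adjusted p of 1.55e-08, and fell by 2.40 in TPEN/ONC, at an adjusted p of 3.59e-07. In TPEN/Ctrl it was still higher by 0.58, at an adjusted p of 0.00165. The summed microglia and macrophage markers had the same order of groups, and their part in the level of Hmox1 was not tested. Of the other 5 tested genes of haem uptake, export and breakdown, Slc46a1, a transporter of folate and haem, fell from 45.8 RPKM in Ctrl to 35.3 in ONC (log2 fold change -0.37, limma adjusted p = 0.000388). Its mean in TPEN was 36.1 RPKM.

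Among 25 genes of mitochondrial iron and iron-sulfur clusters, 3 were higher in ONC/Ctrl, or 12% beside 11.7% of all genes, and none passed in TPEN/ONC by limma, where 0 were higher and 2 lower at an unadjusted p under 0.05 (voom on the reads called 1 lower). Slc25a37, the mitochondrial iron importer mitoferrin 1, had 3.70 RPKM in Ctrl, 7.90 in ONC and 6.66 in TPEN, a log2 fold change of 1.08 (limma adjusted p = 5.43e-06) in ONC/Ctrl. It shares exon bases with Gm31748 and Gm27223 on the other strand, which were also higher in ONC/Ctrl, with log2 fold changes of 1.44 and 1.45. Iscu, the scaffold on which the clusters are built, rose from 7.80 to 9.95 RPKM (log2 fold change 0.35, limma adjusted p = 0.0104).

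HIF is held down by prolyl hydroxylases that use iron, and chelators of iron are known to raise it. Of 16 tested HIF targets, 6 were lower and 0 higher in ONC/Ctrl by limma (also 0 higher at an unadjusted p under 0.05 and by voom). The lower ones were 37.5% of the list, beside 6.97% of all genes. In TPEN/ONC 1 was higher and 1 lower, or 6.25% each, beside 3.24% and 4.14% of all genes. Hk2, a hexokinase, had a mean of 134 RPKM in Ctrl, 95.6 in ONC and 103 in TPEN, with log2 fold changes of -0.48 (limma adjusted p = 2.08e-06) in ONC/Ctrl and 0.11 (limma adjusted p = 0.0358) in TPEN/ONC. The second of these lost an adjusted p under 0.05 without any single ONC or TPEN library, without Ctrl replicate 2 and with the replicate block (adjusted p = 0.0724). Vegfa, the angiogenic growth factor, had 34.0, 25.9 and 27.5 RPKM, and its log2 fold change in TPEN/ONC was 0.088 (limma adjusted p = 0.121). P4ha1, Kdm3a and Pgk1 fell by 0.29 to 0.44 on the log2 scale in ONC/Ctrl. The sixth gene was Bnip3, which the naming rule left out and which is named here after its values were seen (log2 fold change -0.20, limma adjusted p = 0.0459). Mxi1, a partner of the Myc network, was lower in TPEN/ONC (log2 fold change -0.24, limma adjusted p = 0.00704), and 3.45% of its exon length is shared with Gm10197 on the other strand. The summed rod markers were lower as well, at 15139 to 15352 RPKM in ONC and 16237 to 16349 in TPEN against 17243 to 18017 in Ctrl, and their part in the HIF targets was not tested. In TPEN/ONC, the median log2 fold change of the HIF list was -0.0016, beside -0.011 for all genes. In TPEN/Ctrl it was -0.19, beside 0.012 for all genes. There 6 of the 16 were lower by limma, or 37.5%, beside 5.01% of all genes. Higher were 0 by limma, at an unadjusted p under 0.05 and by voom. These 6 are not all the same genes as in ONC/Ctrl.

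Of the remaining genes, Lrp1, a receptor that takes up haem bound to hemopexin, was higher in ONC/Ctrl (log2 fold change 0.38, limma adjusted p = 0.0141), and it lost the call without Ctrl replicate 2 or ONC replicate 2 (adjusted p up to 0.0575). It was the only one of 7 tested genes of other uptake, reduction and release to pass there, or 14.3%, beside 11.7% of all genes that were higher. None of the 7 passed in TPEN/ONC by limma, where 1 was higher and 1 lower both at an unadjusted p under 0.05 and by voom. Epas1, which encodes the alpha subunit of a hypoxia-inducible factor, rose from 52.6 to 63.1 RPKM in ONC/Ctrl (0.26, limma adjusted p = 0.000783). Fbxl5, which senses iron and directs the degradation of IRP2, had 20.6 RPKM in Ctrl, 22.2 in ONC and 24.7 in TPEN. Its log2 fold change was 0.15 in TPEN/ONC (limma adjusted p = 0.0324), which lost the call without any single ONC or TPEN library, with the replicate block (adjusted p = 0.0676) and with only the 6 libraries compared (adjusted p = 0.0509), and 0.26 in TPEN/Ctrl (limma adjusted p = 0.00115), which kept it under all 17 alternatives. Epas1 and Fbxl5 were among 6 tested chaperones, sensors and genes of systemic control. Of these, 1 was higher in ONC/Ctrl and 1 in TPEN/ONC, or 16.7% each, beside 11.7% and 3.24% of all genes. In TPEN/Ctrl 3 were higher, or 50%, beside 8.36% of all genes. By limma 0 were lower in any comparison, while voom called 1 lower in ONC/Ctrl.

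**Figure D5:**
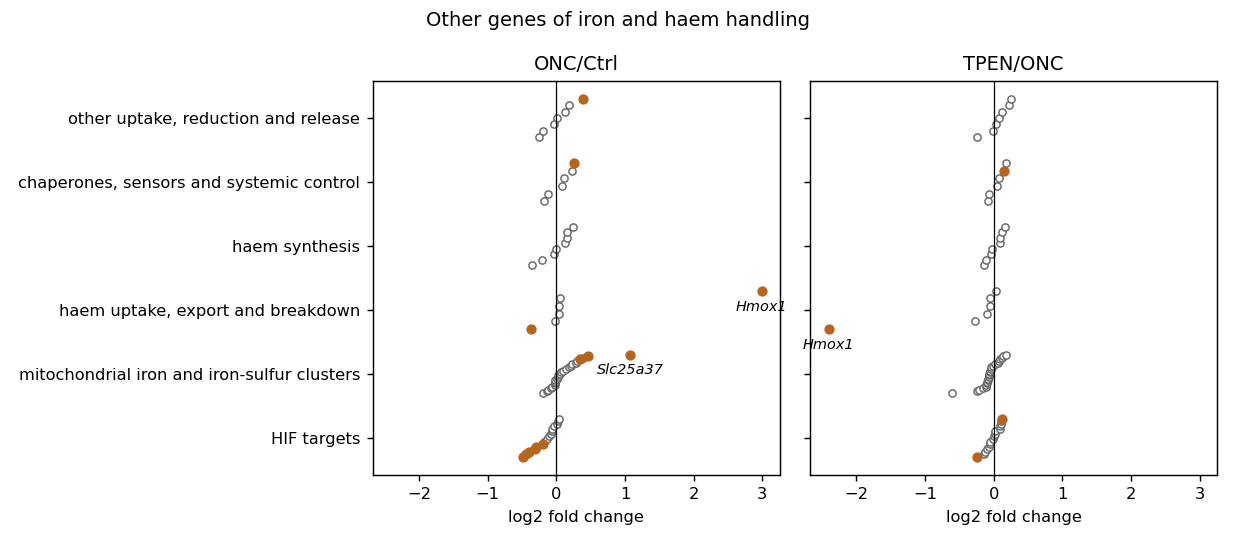
Log2 fold change (x axis, on the log2(RPKM + 0.1) scale) of the tested genes of 6 other lists in ONC/Ctrl and TPEN/ONC. Filled points passed an adjusted p of 0.05 by limma. Hmox1 lies at 2.99 in ONC/Ctrl and at -2.40 in TPEN/ONC, and no other gene of the lists that passed moved by more than 0.24 in TPEN/ONC.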

How the data were processed

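RNA of cells sorted from mouse retina was sequenced in 9 libraries. The authors trimmed reads (the submitters' notes name Trimmomatic 0.36) and mapped them to GRCm38, and they deposited RPKM values for 15228 genes with exon positions and exon length. The library kit marks strand and molecules, but the counting program, its strand setting and the collapse of molecular identifiers are not given in the sources used here. The 9 deposited columns of log2 fold changes, p-values and other results of the authors' own comparisons were not used. RPKM times exon length gave whole reads for 100% of values (tolerance 0.001), so depth could be worked out.

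The 13566 genes whose mean reached 0.5 RPKM were tested on log2(RPKM + 0.1) with limma 3.58.1 in R 4.3.3, with a variance trend and 1 coefficient per group, and Benjamini-Hochberg adjustment over all of them. A gene passed at an adjusted p under 0.05. The added 0.1 RPKM makes fold changes of low genes smaller. The study tested its comparisons with a count model, which does not apply to RPKM values directly. Of the tests used here, only voom took the worked-out reads. On simulated data the fit was checked to return the fold changes put in. Ratios were compared by a two-sided exact permutation test over libraries (Python 3.11.15, scipy 1.17.1). Alternatives changed the pseudocount, the filter, the scaling, the test (voom on the worked-out reads), the libraries fitted and the replicate block, and left out each library in turn. Hairpins were searched in GENCODE M21 transcripts, folded with RNAfold 2.7.2, and near copies were sought with blastn 2.17.0. Of the table's symbols, 97.2% were in GENCODE M21.

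All 10 genes were to be named. Of each other list, up to 6 genes were named that passed in ONC/Ctrl or TPEN/ONC without overlap of the groups, by size of the log2 fold change. Members, lists and markers were chosen with earlier results of these data known. Some genes that the rule named are not reported here.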

Additional observations from a re-analysis of the deposited data

How the results depend on the processing

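The count of the 8 tested genes that passed was the same under all 17 alternatives in ONC/Ctrl (5) and TPEN/ONC (2). In TPEN/Ctrl it was 4, and 3 where Tfrc lost the call without 1 of 3 libraries. With the replicate number as a block, the counts were 5, 2 and 4. The block ended the calls of Hk2 and Fbxl5 in TPEN/ONC (adjusted p = 0.0724 and 0.0676) and no other call of a gene that the rule named. Same-numbered libraries did not deviate together (correlations of -0.062 to 0.027), so the numbers were not read as pairs. Over all genes, the block gave 2224, 701 and 1464 passing genes in ONC/Ctrl, TPEN/ONC and TPEN/Ctrl in place of 2536, 1002 and 1814. Voom gave 1685 in TPEN/ONC, and leaving out 1 library gave as few as 536. The directions that turned all belonged to values that passed no test, and the cause was not tested. In ONC/Ctrl, the log2 fold change of Aco1 was 0.000159 with voom, and that of Ireb2 was -0.026 with quantile normalization and -0.013 with median-ratio scaling. With 1 library left out, the log2 fold change in ONC/Ctrl ranged from -0.041 to 0.15 for Slc11a2, from -0.059 to 0.055 for Aco1 and from -0.027 to 0.058 for Ireb2. In TPEN/ONC it ranged from -0.038 to 0.029 for Tfrc, from -0.062 to 0.12 for Slc11a2 and from -0.071 to 0.022 for Ireb2, and in TPEN/Ctrl from -0.060 to 0.034 for Ireb2. The permutation p of both ratios was 0.00357 to 0.00714 with 1 library left out. Alternatives for the other genes that the rule named were added after the data were seen, and none turned a direction. They were not run for Bnip3, which the rule left out.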
